A study of Rattus norvegicus with 8 samples.

Results

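Hox genes encode homeodomain transcription factors that lie in 4 clusters, A to D, and carry a number for their paralog group, which follows their order along the cluster. Genes with low numbers lie at the 3′ end of a cluster and are generally expressed further towards the head, and those with high numbers are expressed further towards the tail. Groups 3 to 5 cover the hindbrain, the caudal pharyngeal arches and the neck in vertebrate embryos, and the great arteries form in these arches with smooth muscle that comes in part from the neural crest. Before birth the ductus arteriosus (DA) carries blood from the pulmonary artery into the aorta, and it derives from the caudalmost arch artery.

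The 7 genes described here are Hoxb3 and Hoxd3 of group 3, Hoxa4, Hoxc4 and Hoxd4 of group 4, and Hoxa5 and Hoxc5 of group 5, out of 14506 genes measured. They come from a list of Hox genes of these groups, each matched to the probe set with 1 symbol in the platform annotation and the highest mean, and each had 1 probe set. The members were chosen by their deposited log2 values in DA and aorta across the 4 groups, so these values are a description. The annotation named 8 genes of groups 3 to 5 in this way, and the only one outside the list was Hoxb4, whose values are given beside the others. Hoxb4 was also the gene with the smallest tissue differences of the 8. Because the values of all 4 groups chose the members, the differences of the members between vessels and between strains are given with their errors and no p-value. Counts of members that the limma fit over all genes called stand beside the share of all genes called, as a description.

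The groups were DA of Brown-Norway rats (BN), DA of Fischer344 rats (F344), aorta of BN and aorta of F344, all inbred full-term neonates at 1 h of age, with no treatment, allele or transgene named in the labels. In BN, ductus closure after birth is known to fail in some animals, and F344 is set against it. Each group had 2 Affymetrix Rat Gene 1.0 ST arrays, and RNA came from pooled tissues. Whether replicates differ in animals or litter is not in the labels, so errors and p-values cover only the spread between these 8 arrays, and fewer cells of a type cannot be told apart from less RNA per cell.

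Values are log2 intensities as deposited, so 1 unit is a 2-fold difference. The DA marker Tfap2b, a transcription factor gene mutated in Char syndrome with patent ductus, had 9.66 and 9.25 in BN DA and 9.90 and 9.92 in F344 DA, against 5.51 and 6.75 in BN aorta and 6.06 and 6.21 in F344 aorta, and all 8 smooth muscle markers were above the median of all values on every array. Array medians lay between 6.96 and 7.05. BN DA replicates differed more than others (SD of the replicate difference over genes 0.349, against 0.223 in F344 DA, 0.258 in BN aorta and 0.196 in F344 aorta), and thymocyte and lymphocyte markers averaged 6.91 on BN DA replicate 1 and 5.76 to 5.88 on the other 7 arrays. In all 4 groups replicate 1 had the higher erythroid list mean, with 8.83 and 7.63 in BN DA, 8.41 and 7.50 in F344 DA, 8.31 and 7.55 in BN aorta, and 7.85 and 7.19 in F344 aorta. Chemosensory receptor genes, which were dim, had a median difference of 0.39 between DA and aorta in BN and 0.79 in F344.

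RefSeq promoters (build GRCr8, 250 bases before to 50 after the annotated start) were at hand for 4 of the 7 members. All 4 are shown, and they were not chosen by direction. Of these genes, Hoxa4 and Hoxd3 had higher values in DA than in aorta and Hoxc4 and Hoxd4 lower ones. Capitals mark every match on either strand to 6 motifs. These were the TATA box, spelled TATAAA, the motif bound by the factor NF-Y, spelled CCAAT, and the E-box, spelled CACGTG. The others were the motif bound by Pbx with Hox proteins, spelled TGATNNAT, the motif bound by Cdx proteins, spelled TTTATG, and the core of nuclear receptor sites, spelled AGGTCA.
Hoxa4 promoter, chr4:82622253-82622552, strand minus: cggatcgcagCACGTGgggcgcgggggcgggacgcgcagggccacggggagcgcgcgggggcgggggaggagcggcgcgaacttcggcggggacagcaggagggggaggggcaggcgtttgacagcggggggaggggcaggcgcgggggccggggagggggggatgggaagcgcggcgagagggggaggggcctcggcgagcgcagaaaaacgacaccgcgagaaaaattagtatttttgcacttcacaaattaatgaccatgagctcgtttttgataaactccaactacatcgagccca
Hoxd3 promoter, chr3:80045876-80046175, strand plus: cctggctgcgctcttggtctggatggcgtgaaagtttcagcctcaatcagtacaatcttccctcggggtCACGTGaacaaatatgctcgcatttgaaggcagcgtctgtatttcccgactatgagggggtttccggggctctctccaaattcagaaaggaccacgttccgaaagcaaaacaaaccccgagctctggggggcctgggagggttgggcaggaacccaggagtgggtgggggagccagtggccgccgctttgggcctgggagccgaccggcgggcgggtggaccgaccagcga
Hoxc4 promoter, chr7:136048809-136049108, strand plus: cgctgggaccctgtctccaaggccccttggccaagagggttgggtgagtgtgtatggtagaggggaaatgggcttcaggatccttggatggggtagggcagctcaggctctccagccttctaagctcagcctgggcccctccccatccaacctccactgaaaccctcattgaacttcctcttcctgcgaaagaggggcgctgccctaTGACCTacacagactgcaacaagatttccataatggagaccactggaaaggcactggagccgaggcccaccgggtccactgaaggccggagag
Hoxd4 promoter, chr3:80021636-80021935, strand plus: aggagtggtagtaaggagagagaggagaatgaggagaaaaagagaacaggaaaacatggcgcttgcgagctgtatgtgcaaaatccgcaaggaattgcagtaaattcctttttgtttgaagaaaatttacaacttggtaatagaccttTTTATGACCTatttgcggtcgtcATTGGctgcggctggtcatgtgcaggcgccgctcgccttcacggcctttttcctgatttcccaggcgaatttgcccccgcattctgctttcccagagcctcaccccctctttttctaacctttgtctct

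The promoters of Hoxa4 and Hoxd3 each held 1 match, in both cases the E-box, a motif found in 6.42% of 33469 promoters of the same length. The Hoxc4 promoter held 1 match to the nuclear receptor core on the opposite strand. The Hoxd4 promoter held the Cdx motif and, on the opposite strand, the NF-Y motif and a nuclear receptor core, and the letters of the core overlap the Cdx motif. Of all promoters, 16.2% held the nuclear receptor core, 12.7% the Cdx motif and 37.5% the NF-Y motif. The TATA box (14.2% of all promoters) and the Pbx and Hox motif (9.1%) were in none of the 4 windows, which says only that these letters are not there. GC content was 67.3% for Hoxa4, 60.7% for Hoxd3, 59% for Hoxc4 and 47.3% for Hoxd4, and the median of all promoters was 51.7%. In the Hoxa4 window an ATG follows soon after the annotated start and opens a reading frame that runs to the end of the window. Whether transcription begins at the annotated starts was not tested, so the windows may not hold the promoters in use. These matches are a description of 4 windows and were not related to the values by any test.

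In DA compared with aorta, 3 of the 7 genes were higher in both strains, 3 were lower in both strains and 1, Hoxa5, was lower in BN and higher in F344. Hoxb3, Hoxd3 and Hoxa4 had all 4 DA arrays above all 4 aorta arrays, a pattern seen in 8.03% of all genes. Hoxc4, Hoxd4 and Hoxc5 had all 4 DA arrays below all 4 aorta arrays, as 8.38% of all genes did (16.4% in either direction). Tissue differences of opposite direction with no overlap in either strain, as in Hoxa5, occurred in 3.8% of all genes. These shares are background for a list chosen with the values known, and nothing is read from the comparison.

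Among the genes of group 3, Hoxb3 (Entrez gene 303488) takes part, with its paralogs, in patterning the hindbrain and the pharyngeal arches in mouse. It had 9.33 and 9.34 in BN DA and 9.49 and 9.72 in F344 DA, against 9.02 and 9.08 in BN aorta and 9.15 and 9.15 in F344 aorta. The groups followed the order F344 DA, BN DA, F344 aorta and BN aorta, and no neighbours in this order overlapped. The difference between DA and aorta was 0.28 ± 0.12 in BN and 0.45 ± 0.12 in F344 on the log2 scale (SE from the model).

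Hoxd3 (Entrez gene 288152), which patterns the first neck vertebrae in mouse, showed the largest positive differences of the 7. It had 7.46 and 7.63 in BN DA and 7.46 and 7.60 in F344 DA, against 6.86 and 7.06 in BN aorta and 6.73 and 7.01 in F344 aorta. The strains overlapped within each vessel, and the vessels did not overlap. The difference was 0.58 ± 0.15 in BN and 0.66 ± 0.15 in F344, which is 1.5-fold and 1.58-fold.

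Of the listed genes of group 4, Hoxa4 (Entrez gene 100912525) was the one with higher values in DA. It had 8.66 and 8.86 in BN DA and 8.84 and 8.81 in F344 DA, against 8.27 and 8.32 in BN aorta and 8.26 and 8.28 in F344 aorta. Strains overlapped in both vessels, and the 4 aorta arrays lay close together. The difference was 0.46 ± 0.12 in BN and 0.55 ± 0.12 in F344.

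Hoxc4 and Hoxd4, paralogs of Hoxa4 on other clusters, had differences of the opposite sign. Hoxc4 (Entrez gene 24459) had 6.13 and 6.06 in BN DA and 6.31 and 6.42 in F344 DA, against 6.94 and 6.76 in BN aorta and 6.78 and 6.92 in F344 aorta. Its aorta arrays overlapped between strains, while its BN DA arrays lay below its F344 DA arrays. The difference between DA and aorta was -0.75 ± 0.13 in BN and -0.49 ± 0.13 in F344.

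Hoxd4 (Entrez gene 288153), which responds to retinoic acid and patterns neck vertebrae in mouse, had 6.32 and 6.58 in BN DA and 6.53 and 6.24 in F344 DA, against 7.14 and 7.18 in BN aorta and 7.13 and 6.98 in F344 aorta. The DA arrays of the strains overlapped, and in the aorta both BN arrays were above both F344 arrays. The difference was -0.71 ± 0.15 in BN and -0.67 ± 0.15 in F344. Hoxd3 and Hoxd4 are neighbours on the D cluster and had differences of opposite sign in both strains.

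Hoxb4 (Entrez gene 497988), the gene of group 4 outside the list, overlapped between the vessels in BN, and in F344 its DA arrays were just above its aorta arrays. It had 9.04 and 9.01 in BN DA and 9.14 and 9.09 in F344 DA, against 8.92 and 9.10 in BN aorta and 8.88 and 9.06 in F344 aorta. Its differences were 0.02 ± 0.13 in BN and 0.14 ± 0.13 in F344.

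The genes of group 5 held the largest difference of the list. Hoxc5 (Entrez gene 315341) had 5.21 and 5.28 in BN DA and 5.08 and 5.14 in F344 DA, against 7.09 and 6.79 in BN aorta and 7.01 and 6.26 in F344 aorta. All DA arrays were lower than all aorta arrays, and F344 aorta replicate 2 stood below the other aorta arrays. The difference was -1.70 ± 0.22 in BN and -1.53 ± 0.22 in F344, and the difference in F344 was -1.15 and -1.90 without F344 aorta replicates 1 and 2. No detection call was used here, so the DA values, which lie well below the median of all values, are not shown to be above background.

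Hoxa5 (Entrez gene 79241), which is needed for the development of lung, trachea and neck skeleton in mouse, was the gene whose vessels differed in opposite directions. It had 10.03 and 9.97 in BN DA and 10.89 and 11.09 in F344 DA, against 10.25 and 10.60 in BN aorta and 10.62 and 10.68 in F344 aorta. The highest values were those of F344 DA and the lowest those of BN DA, with the aortas between them, and no neighbours in the order F344 DA, F344 aorta, BN aorta and BN DA overlapped. The difference between DA and aorta was -0.42 ± 0.15 in BN and 0.34 ± 0.15 in F344.

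**Figure D1:**
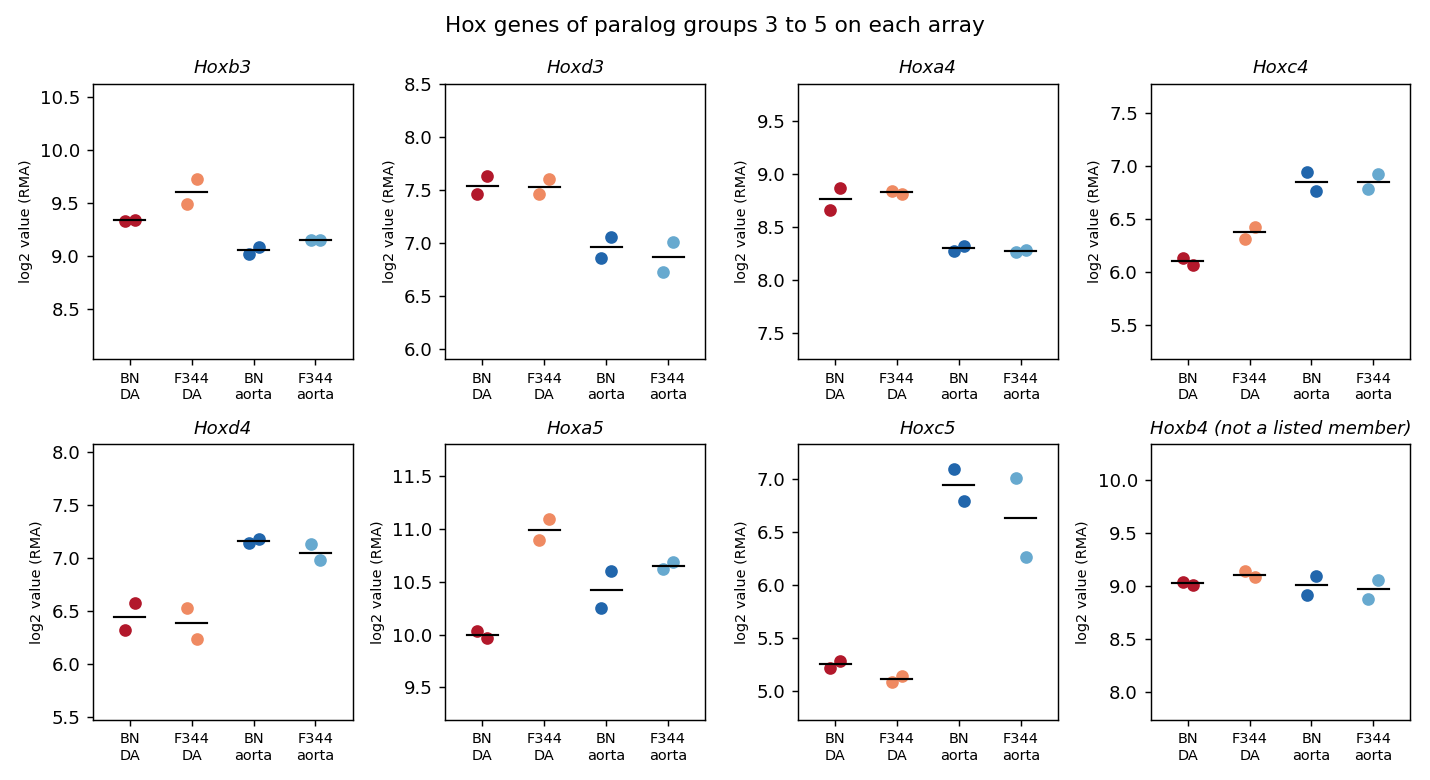
Log2 values (RMA, as deposited) of the 7 listed Hox genes and Hoxb4 on each of the 8 arrays, with DA groups left of aorta groups and BN left of F344. Points are arrays and lines are group means (n = 2), every panel spans the same number of log2 units, and Hoxc5 shows the widest gap between vessels while Hoxa5 shows F344 DA highest and BN DA lowest.

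In the fit over all genes, limma called 0 members higher and 3 lower in BN DA than in BN aorta at an adjusted p under 0.05, where 0.986% of all genes were called higher and 0.82% lower (1.81% in all). It called 3 members higher and 3 lower in F344 DA than in F344 aorta, where 8.87% of all genes were called higher and 5.12% lower (14% in all). The arrays of the vessels did not overlap in 7 of 7 members in either strain, with 3 higher and 4 lower in BN and 4 higher and 3 lower in F344. Of all genes, 37.3% did not overlap in BN, 18.7% higher and 18.5% lower, and 67.4% in F344, 29.6% higher and 37.8% lower. The members called in BN were Hoxc4, Hoxd4 and Hoxc5, and in F344 these and Hoxb3, Hoxd3 and Hoxa4. The median difference over the 7 members was -0.42 in BN and 0.34 in F344, in both cases the value of Hoxa5, and the median of all genes in F344 was -0.04. As the list was drawn up with these values known, nothing is read from the counts.

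The counts depended on single arrays. For F344 the number called was 2 with DA replicate 1 of that strain left out and 1 with replicate 2 left out, 1 with aorta replicate 1 left out and 2 with aorta replicate 2 left out, and Hoxc5 was called each time. For BN it was 2 with DA replicate 1 left out, 3 with DA replicate 2, 0 with aorta replicate 1, 1 with aorta replicate 2, and 1 with any single F344 array left out. Over the 4 scalings tried (as deposited, repeated quantile normalization, cyclic loess and centring on brighter genes) every tissue difference of the 7 members kept its sign. The range in F344 was 0.45 to 0.66 for Hoxb3, 0.66 to 0.87 for Hoxd3, 0.55 to 0.76 for Hoxa4, -0.65 to -0.28 for Hoxc4, -0.81 to -0.46 for Hoxd4, -1.76 to -1.32 for Hoxc5 and 0.34 to 0.55 for Hoxa5. Centring on brighter genes, which moved the median of all genes in F344 to 0.165, took the calls of Hoxc4 and Hoxd4 in F344 away, and that of Hoxd4 in BN was lost after centring and after repeated quantile normalization.

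Some markers of other cells also differed between the vessels, and other marker lists had none called. Of all genes, limma called 0.986% higher and 0.82% lower in BN DA, and 8.87% higher and 5.12% lower in F344 DA. Of 10 endothelial markers 0 rose and 6 fell in F344 DA compared with F344 aorta, and their list means were 8.72 and 8.65 in F344 DA and 9.27 and 9.28 in F344 aorta. In BN limma called 0 of them (1 at an unadjusted p under 0.05), and the list means of 9.22 and 8.89 in BN DA stood beside 9.05 and 9.08 in BN aorta. Of 7 adventitial fibroblast markers 1 rose and 3 fell in F344 DA and 0 rose and 2 fell in BN DA, with list means of 10.15 and 10.13 in BN DA and 10.08 and 9.94 in F344 DA, against 10.36 and 10.26 in BN aorta and 10.32 and 10.19 in F344 aorta. Of 10 neuron markers 0 rose and 0 fell in either strain (0 in BN and 1 in F344 at an unadjusted p under 0.05), and 8 of them were below the median of all values on every array. Counts of other markers called in DA against aorta were 0 higher and 0 lower of 8 smooth muscle markers in BN and 2 higher and 0 lower in F344, and 0 higher and 1 lower of 10 epithelial markers in BN and 1 higher and 2 lower in F344. In F344, 1 of 10 thymocyte and lymphocyte markers and 1 of 5 skeletal muscle markers were lower, and in BN 1 of 7 cartilage markers was higher. Limma called 0 of 5 Schwann and glial, 0 of 7 erythroid and 0 of 9 cardiomyocyte markers in either strain (in BN 0, 0 and 3, and in F344 2, 0 and 0 at an unadjusted p under 0.05). The part of these cells in the Hox differences was not tested.

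Some transcripts of neighbouring genes share their place with the members. In the RefSeq gene table the span of Hoxa3 overlaps Hoxa4 and Hoxa5, and that of Hoxc6 overlaps Hoxc4 and Hoxc5, and neither Hoxa3 nor Hoxc6 had a value of its own here. Probe positions were not used, so signal from such longer transcripts cannot be told apart from that of the members. Hoxd3 shared its span with no other annotated gene, and Hoxb3 and Hoxd4 only with non-coding genes.

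**Figure D2:**
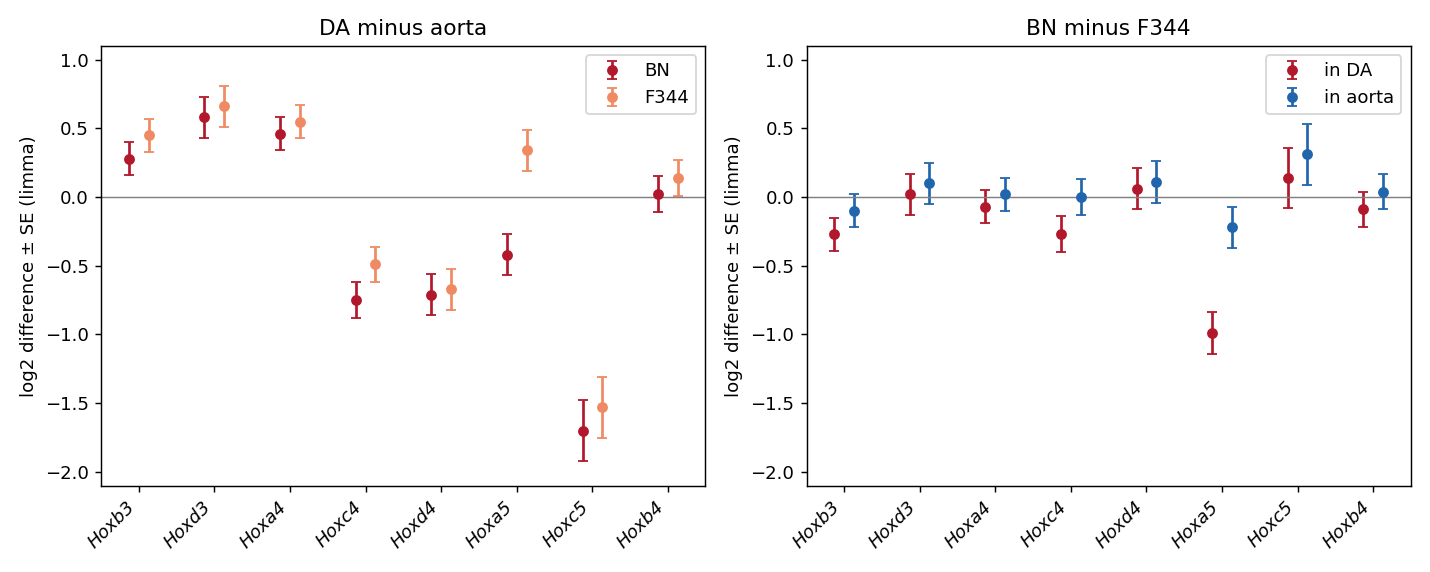
Log2 differences with standard errors from the limma model for the 7 listed genes and Hoxb4, DA minus aorta in each strain on the left and BN minus F344 in each vessel on the right. Hoxb3, Hoxd3 and Hoxa4 lie above 0 and Hoxc4, Hoxd4 and Hoxc5 below 0 in both strains, and Hoxa5 is the gene farthest from 0 between strains, at -0.99 in DA.

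Between strains, Hoxa5 had the largest difference of the 7. In DA it was lower in BN, at 10.03 and 9.97, than in F344, at 10.89 and 11.09, with an SD of 0.04 in BN DA and 0.14 in F344 DA (n = 2). That is a log2 difference of -0.99 ± 0.15 (SE), or 1.98-fold. Of the members 0 were called higher and 1 lower in BN DA, where 2.43% of all genes were called higher and 2.1% lower (4.53% in all), and the one called was Hoxa5. It was not called with either F344 DA array left out, and the difference stayed between -1.13 and -0.89 in 18 alternatives. As these values also chose the list, nothing is read from the call.

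Between the same arrays, BN DA was called higher for 1 of 10 endothelial markers, Sox17 (0.63 ± 0.13, limma adjusted p = 0.0326). The same held for 1 of 10 thymocyte and lymphocyte markers, Cd4 (1.01 ± 0.20, 0.0295). It also held for 1 of 7 cartilage markers, Acan (1.87 ± 0.34, 0.0215), and 1 of 10 epithelial markers, Krt8 (0.77 ± 0.16, 0.0336). The list medians were 0.42 for endothelial, 0.52 for thymocyte and lymphocyte, -0.19 for cartilage and -0.01 for epithelial markers. Chemosensory receptor genes had a median of -0.48 in this contrast. The part of these in the value of Hoxa5 was not tested.

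The other 6 members had strain differences in DA between -0.27 and 0.14, with standard errors of 0.12 to 0.22. Hoxb3 was at 9.34 ± 0.00 in BN DA and 9.60 ± 0.16 in F344 DA (SD, n = 2), a difference of -0.27 ± 0.12. Hoxc4 was at 6.10 ± 0.05 in BN DA and 6.37 ± 0.08 in F344 DA, a difference of -0.27 ± 0.13. In both genes the BN DA arrays did not overlap the F344 DA arrays, and 50.1% of all genes showed such a separation, 25.9% with BN higher and 24.3% with BN lower. Hoxc5, at 5.25 ± 0.05 in BN DA and 5.11 ± 0.05 in F344 DA, was also separated, with BN higher by 0.14 ± 0.22, and Hoxa4, Hoxd3 and Hoxd4 overlapped.

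In the aorta, the strains differed by between -0.22 and 0.31 in the 7 members. Limma called 0 of them (0 at an unadjusted p under 0.05), where 0.159% of all genes were called, 0.0827% higher and 0.0758% lower, and 5.22% were under an unadjusted p of 0.05. Hoxa5 was at 10.42 ± 0.25 in BN aorta and 10.65 ± 0.04 in F344 aorta (SD, n = 2), a difference of -0.22 ± 0.15. The widest difference was that of Hoxc5, 0.31 ± 0.22, and its F344 aorta arrays, at 7.01 and 6.26, were far apart. Arrays did not overlap in 1 member that was higher and 2 that were lower in BN aorta, and of all genes 35.7% did not overlap, 17.9% with BN higher and 17.8% with BN lower.

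The interaction of strain with tissue, the DA minus aorta difference in BN minus that in F344, was below 0 in all 7 members, from -0.76 to -0.04. These values share arrays and the sign of a small one is not a result. Limma called 0 members (1 at an unadjusted p under 0.05) and 0 of all genes, which is 0% (9.67% at an unadjusted p under 0.05). That member was Hoxa5, at -0.76 ± 0.21, and nothing is read from this, as its values also chose the list.

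On the tail side of the members, Hoxa7 in cluster A and Hoxb7, Hoxb8 and Hoxb9 in cluster B had lower values in DA in both strains. On the head side, Hoxa2, which patterns the anterior arches, had 10.42 and 10.56 in BN DA and 10.12 and 10.25 in F344 DA, against 9.91 and 9.94 in BN aorta and 9.79 and 9.98 in F344 aorta. Hoxb2, its paralog, overlapped between the vessels in both strains, with differences of -0.04 in BN and -0.09 in F344. The mean of Hoxb2, 5.96, was below the median of all values, and it is not shown to be above background. Hoxa7 had 6.61 and 6.76 in BN DA and 6.93 and 7.04 in F344 DA, against 8.80 and 8.64 in BN aorta and 8.69 and 8.68 in F344 aorta, and was called lower in DA in both strains. In cluster B, Hoxb7, Hoxb8 and Hoxb9 had differences of -0.61, -0.51 and -0.53 in BN, beside 0.28 for Hoxb3. In F344 they were at -0.69, -0.59 and -0.72, beside 0.45 for Hoxb3. Hoxb8 and Hoxb9, with means of 6.12 and 5.68, were also below the median of all values.

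Cluster D changed sign between Hoxd3 and Hoxd4, whereas in cluster C the members Hoxc4 and Hoxc5 were both lower in DA. Hoxd1 had differences of -0.03 in BN and -0.01 in F344. The other 7 genes of groups 6 to 13 were Hoxa11, Hoxb13, Hoxc9, Hoxc12, Hoxd9, Hoxd10 and Hoxd13. Their differences lay between -0.21 and 0.12 in BN and between -0.20 and 0.36 in F344. All 7 had means below the median of all values, from 4.59 to 6.11. Without a detection call they are not shown to be above background. Of the 11 measured genes of groups 6 to 13, limma called 0 higher and 1 lower in BN DA and 0 higher and 4 lower in F344 DA, with a list median of -0.07 in BN and -0.13 in F344. Of all genes, limma called 0.986% higher and 0.82% lower in BN DA, and 8.87% higher and 5.12% lower in F344 DA. Of the 3 measured genes of groups 1 and 2, it called 0 in either strain (1 in each at an unadjusted p under 0.05).

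**Figure D3:**
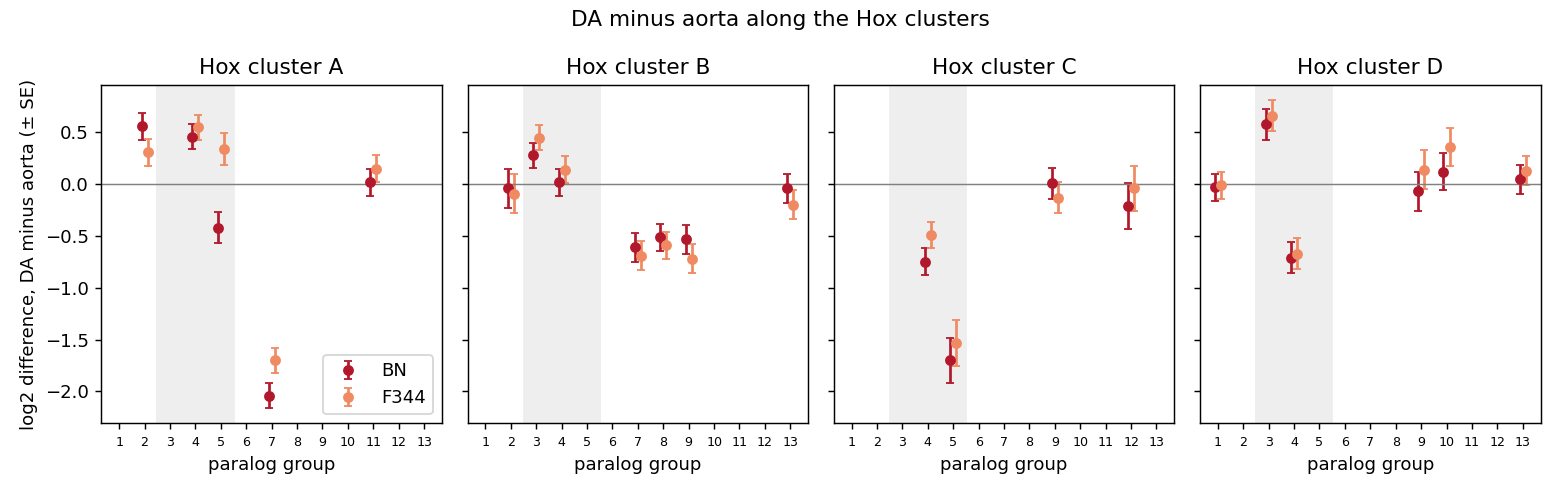
Log2 difference, DA minus aorta, with its standard error, for the 22 Hox genes measured, by cluster and by paralog group, in BN and F344. The shaded band holds groups 3 to 5, and in it Hoxd3 lies at 0.58 in BN and 0.66 in F344, and its neighbour Hoxd4 at -0.71 in BN and -0.67 in F344.

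The arrays placed the 6 genes other than Hoxa5 in opposed sets. Over the 8 arrays, Hoxb3, Hoxd3 and Hoxa4 had pairwise Pearson correlations of 0.81 to 0.96, Hoxc4, Hoxd4 and Hoxc5 of 0.83 to 0.95, and the 9 pairs across the sets of -0.95 to -0.66. Hoxa5 correlated with the other members at -0.06 to 0.45. All 6 genes differ between the vessels and the points share arrays, so these are descriptions of 8 arrays.

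Genes with patterns most like a member were sought by Pearson correlation over the 8 arrays among 3922 other named genes whose group means spanned at least 0.5. The values below are the highest of that many over 8 arrays, so they are a description and show no shared regulation. For Hoxc4 the first were the fibrillar collagen gene Col3a1 (r = 0.997), Entpd5 (0.985) and Fat3 (0.976), and for Hoxd4 they were the collagen gene Col14a1 (0.986), the kinase gene Dclk1 (0.986) and Tent5a (0.982). For Hoxc5 they were the mitochondrial folate enzyme gene Aldh1l2 (0.980), the vasopressin receptor gene Avpr1a (0.977) and Tspan11 (0.976), and for Hoxa5 they were Atg13 (0.933), the sodium leak channel gene Nalcn (0.924) and the estrogen receptor gene Esr1 (0.913). Of the first 3 genes, 3 for Hoxb3, 2 for Hoxa4 and 2 for Hoxd3 were chemosensory receptor genes, namely Vom1r47 (0.992), Or5h27 (0.990) and Tas2r144 (0.984) for Hoxb3, Or6c208 (0.981) and Or6c75 (0.979) for Hoxa4, and Or51b4b (0.973) and Or4p18b (0.973) for Hoxd3. The remaining gene was Bves (0.981) for Hoxa4 and Nox3 (0.969) for Hoxd3. The dimmer genes as a whole were higher in F344 DA than in F344 aorta, with a median of 0.149 for the dimmer 50% and -0.173 for the brighter 50% of genes. Hoxb3, Hoxa4 and Hoxd3 had means of 9.29, 8.54 and 7.23, above the median of all values (7.01). The Hoxd3 means in BN aorta and F344 aorta, 6.96 and 6.87, were below it. The deposited differences of Hoxb3, Hoxa4 and Hoxd3 in F344, 0.45, 0.55 and 0.66, were the lowest over the 4 scalings above. In BN the ranges were 0.28 to 0.33 for Hoxb3 and 0.46 to 0.51 for Hoxa4. For Hoxd3 in BN the range was 0.55 to 0.63, around a deposited difference of 0.58. The part of the shift with brightness in the values of these genes was not tested beyond those scalings.

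TALE homeodomain proteins of the Meis, Pbx and Pknox families bind DNA together with Hox proteins. Of 7 measured, limma called 0 in BN (1 at an unadjusted p under 0.05) and 1 higher and 0 lower in F344, with list medians of 0.12 and 0.03. Of all genes, 1.81% were called in BN, and 8.87% were called higher and 5.12% lower in F344. Meis1 had 10.88 and 10.77 in BN DA and 10.91 and 10.93 in F344 DA, against 10.16 and 10.49 in BN aorta and 10.07 and 10.09 in F344 aorta. It was 1.79-fold higher in F344 DA (0.84 ± 0.14, limma adjusted p = 0.00481), and in BN its difference was 0.50 ± 0.14 (0.119). Meis2 was at 8.80 on BN DA replicate 1 and 9.88 on replicate 2, the widest gap between replicates among these cofactors.

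Retinoic acid induces Hox genes of low number in many tissues. Of 15 measured genes of retinoic acid synthesis, binding and breakdown, limma called 1 higher and 0 lower in BN DA and 3 higher and 2 lower in F344 DA. The list medians were -0.01 in BN and -0.03 in F344. Of all genes, 0.986% were called higher and 0.82% lower in BN, and 8.87% higher and 5.12% lower in F344. The synthesis gene Aldh1a1 rose in both, by 0.81 ± 0.12 in BN (limma adjusted p = 0.0141) and by 0.66 ± 0.12 in F344 (0.00699). Aldh1a2, the main enzyme of the embryo, and Rdh10, which makes its substrate, rose in F344 by 1.31 ± 0.27 (0.0127) and 0.89 ± 0.16 (0.00672), and had 0.68 ± 0.27 (0.296) and 0.28 ± 0.16 (0.497) in BN. The breakdown enzyme gene Cyp26b1 was at -0.62 ± 0.15 in F344, a fall (0.0222), and had -0.18 ± 0.15 in BN (0.683). Cyp26b1 was also below the median of all values on every array. The binding protein gene Crabp2 was the other called fall, at -0.61 ± 0.16 in F344 (0.0369), and had -0.08 ± 0.16 in BN (0.908). Other genes of synthesis and breakdown did not follow, with Aldh1a3 at -0.43 ± 0.22 (0.221) and Cyp26a1 at -0.03 ± 0.15 (0.915) in F344. In the interaction limma called 0 of the 15 (2 at an unadjusted p under 0.05). It called 0 of all genes there, so this count cannot show that the strains are alike in these genes. Between strains in DA limma called 0 of the 15 (5 at an unadjusted p under 0.05), with a list median of 0.02. Of all genes, 4.53% were called in that contrast.

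Polycomb and Trithorax proteins keep Hox genes silent or active. Of 19 measured, limma called 0 in BN (0 at an unadjusted p under 0.05), and 0 higher and 2 lower in F344. The 2 were Eed at -0.53 ± 0.14 (limma adjusted p = 0.0341) and Bmi1 at -0.55 ± 0.15 (0.0434). In F344, 7 of the 19 were at an unadjusted p under 0.05. The list medians were -0.05 in BN and -0.21 in F344. Of all genes, limma called 1.81% in BN, and 8.87% higher and 5.12% lower in F344. Of 5 other upstream genes it called 0 in BN (0 at an unadjusted p under 0.05) and 1 lower in F344. This was the growth factor gene Gdf11 at -0.52 ± 0.13 (0.0258), which sets the trunk-to-tail Hox boundary in mouse. Eed, Bmi1 and Gdf11 were above the median of all values (7.01) on every array. The brighter genes as a whole had a median of -0.173 in F344. Centring on brighter genes took the calls of Hoxc4 and Hoxd4 in F344 away. Whether the falls of Eed, Bmi1 and Gdf11 depend on the scaling was not tested. The same holds for the calls in the marker, cofactor and retinoic acid lists.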

How the data were processed

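Affymetrix Rat Gene 1.0 ST arrays measured DA and aorta of BN and F344 neonates, with 4 groups of 2 arrays and 150 ng of total RNA labelled per array, per the labels. The deposited values are log2 per probe set, a scale taken from their range (1.07 to 14.15), and RMA, named in the submitters' processing notes, is a method of background correction, normalization between arrays and summary over probes. No version, settings or annotation build were found for it in the labels. The number of arrays limits the precision.

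Of 29215 probe sets (0 columns of other samples), 15310 had 1 symbol, 323 several and 13582 none in the platform annotation of 2016. The probe set with the highest mean was kept per gene, which left 14506 genes. One limma model (version 3.58.1, R 4.3.3) with 4 group means was fitted to all 8 arrays (4 residual and 5.2 prior degrees of freedom), with two-sided tests and Benjamini-Hochberg adjustment over all genes. Vessels were compared within strains (DA minus aorta), strains within vessels (BN minus F344), and the interaction was taken. The procedure was also run on simulated independent values with shifts in BN DA only. These held no effects shared by an array or tied to brightness, and no result here rests on them. Promoters came from RefSeq (GRCr8). The genes named were the members, any other Hox gene of groups 3 to 5, and the 3 genes most like each member. Up to 4 called genes per list, those with the largest differences, were also named. Other Hox genes, the uncalled values of named genes, and Crabp2, Aldh1a3 and Cyp26a1 were chosen after their values were seen. The members and lists were chosen with earlier results of these data known, so the members' p-values from the planned fits are not printed. Alternatives were robust moderation, a mean-variance trend, cyclic loess, quantile normalization repeated, centring on brighter genes, weights for arrays, a block for the replicate number, the mean of probe sets, dropping dim genes, a fold minimum of 2, fitting only the arrays compared, and leaving out each array.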

Additional observations from a re-analysis of the deposited data

Results flagged for a closer look

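Hoxa5 had tissue differences of opposite direction in the strains, with no overlap between vessels in either. It had 10.03 and 9.97 in BN DA against 10.25 and 10.60 in BN aorta, and 10.89 and 11.09 in F344 DA against 10.62 and 10.68 in F344 aorta. The interaction was -0.76 ± 0.21 on the log2 scale and limma called 0 of all genes in it (9.67% of genes were at an unadjusted p under 0.05). As these values chose the list, no p-value is printed for Hoxa5, and nothing is read from its place among the genes at an unadjusted p under 0.05. Of all genes, 3.8% showed such opposite and separated vessels.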

How the results depend on the processing

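Across the alternatives, the tissue differences of the 7 members kept their sign, and of the values for single members 535 kept direction and call, 44 lost a call, 1 gained one and 28, none of them called, changed sign. The members called in DA against aorta numbered 3 in BN and 6 in F344. With dim genes left out, which removes Hoxc4, Hoxd4 and Hoxc5 from the test, they numbered 0 and 3. In BN 1 was called with array weights, 1 with only the arrays compared, and 1 with a 2-fold minimum, which also left 1 in F344 and 0 between strains in DA. With 1 array left out the ranges were 0 to 3 in BN, 1 to 6 in F344 and 0 to 1 for BN against F344 in DA. The limits are the 2 arrays per group and the dimness of Hoxc4, Hoxd4 and Hoxc5, whose means lie below the median of all values. Changes of sign in BN against F344 in DA were Hoxc5 at -0.01 and Hoxd4 at -0.08 after centring on brighter genes, and Hoxd3 at -0.13 after centring, at -0.01 after cyclic loess and at -0.04 after quantile normalization was repeated. In the aorta Hoxc4 was at 0.01 after centring. In the interaction Hoxc5 was at 0.02 and Hoxd4 at 0.09 after repeated quantile normalization, and Hoxd4 at 0.01 after loess. With 1 array left out, the DA strain difference spanned -0.17 to 0.04 for Hoxa4, -0.07 to 0.10 for Hoxd3 and -0.08 to 0.20 for Hoxd4. The aorta strain difference spanned -0.00 to 0.05 for Hoxa4, -0.09 to 0.09 for Hoxc4, -0.07 to 0.68 for Hoxc5 and -0.05 to 0.24 for Hoxd3. The interaction spanned -0.19 to 0.01 for Hoxa4, -0.54 to 0.21 for Hoxc5, -0.22 to 0.06 for Hoxd3 and -0.18 to 0.10 for Hoxd4. The causes were not tested. Centring took the calls of Hoxd4 in BN and of Hoxc4 and Hoxd4 in F344 away, and repeated quantile normalization that of Hoxd4 in BN.

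With the replicate number as a block, 4 members were called in BN, Hoxd3 being added, 6 in F344, 1 between strains in DA, 0 in the aorta and 0 in the interaction. Deviations of arrays with the same number correlated at 0.03 to 0.52 over 6 pairs of groups, and erythroid markers were higher on replicate 1 in all 4 groups. The labels name no shared litter or day, and with 2 numbers this does not show that the numbers pair the samples.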
